A study of Mus musculus with 2 samples.

Results

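The extracellular matrix of mouse spleen was described through 56 collagen, laminin and related matrix genes, out of 8251 genes named on the arrays. The rule went by symbol alone and took each named collagen or laminin chain gene and 18 further matrix genes, of which 16 were measured. Fbn1 and Spp1 were not analysed here. The members comprised 31 collagen genes and 25 others, read by 82 probe sets. Commercial total RNA of mouse spleen was hybridised to 2 arrays, named array 1 and array 2 after their titles. Both form 1 group with no treatment or control, so no fold change between conditions and no p-value was computed. Strain, sex, age, number of pooled animals and genotype are not stated in the labels. Nor do the labels say that the arrays came from separate extracts, and the spread between them may be technical.

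The matrix is the protein scaffold between cells. Fibrillar collagens form cables. Type IV collagen, laminins and nidogens build the thin sheets called basement membranes under endothelium and around muscle, and proteoglycans and glycoproteins bind fibres, growth factors and cell surface integrins. In spleen, smooth muscle and fibroblasts of the capsule and trabeculae lay down thick collagen bundles, reticular fibroblasts ensheath fine type III collagen fibres that guide lymphocytes, and the venous sinuses are wrapped in ring-shaped strands of basement membrane.

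A signal here is the deposited linear intensity of a gene's probe set, and a gene with several probe sets is represented by the one with the highest mean log2 signal. A gene counted as bright if array 1 and array 2 each put it over their 60th percentile of probe sets, at signals of 346.32 and 342.22. Background was taken from 15 bacterial control probe sets, whose highest value was 95 on array 1 and 76.2 on array 2. Signal varies with probe sequence as well as with RNA amount, so different genes are not ranked by level. The tissue label was checked against its markers: all 11 measured genes of splenic white and red pulp were bright, among them Cd79a of B cells at 10333.1 and 10870.5 and Alas2 of red cell precursors at 12643.8 and 12819.9 on arrays 1 and 2. Genes of acinar cells of the pancreas, an organ next to the spleen, were bright in 8 of 8 cases, with a summed signal of 62882 and 64930. Of all named genes 45.2% were bright. The median log2 signal was 12.63 for the pancreas genes and 11.81 for the spleen markers, which does not rank the lists by RNA amount. The RNA thus also held transcripts typical of another organ. Their part in the matrix signals was not tested.

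Of the 56 matrix genes, 20 were bright, or 35.7%, against 45.2% of all named genes. Another 15 exceeded every bacterial control on each array without being bright, giving 35 above the controls in all, or 62.5% against 73.9% of all named genes. Of the other 21, 10 exceeded the control on 1 array and 11 on neither. The median log2 signal was 7.44 for matrix genes and 8.29 for all named genes. In whole-organ RNA a low signal from fewer matrix-producing cells and one from less RNA per cell cannot be told apart. The bright genes were 13 collagens and 7 others. Fibrillar and basement membrane collagens gave 4 bright genes of 8 each, near the 45.2% of all named genes, whereas laminins gave 0 of 9 and nidogens 0 of 2.

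**Figure D1:**
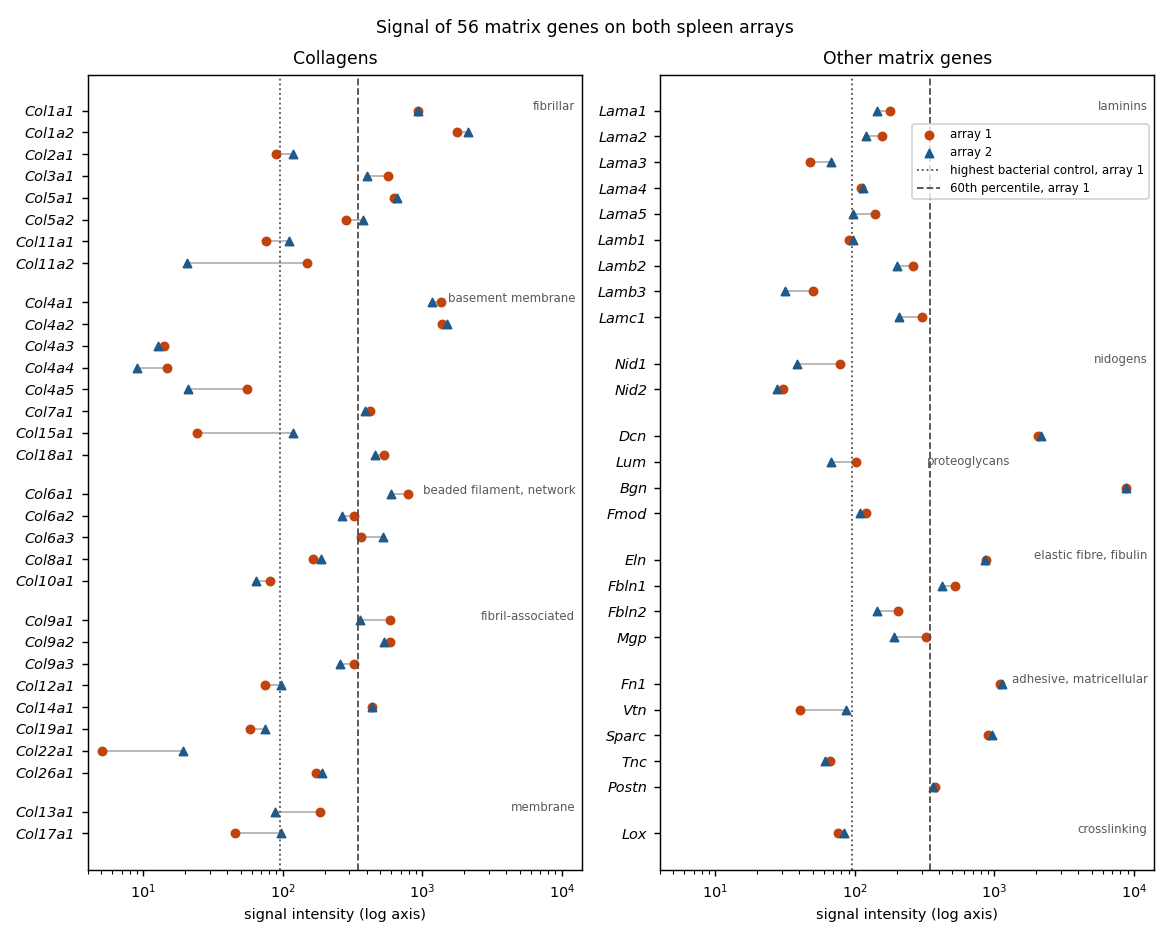
Signal intensity (log axis) of each of the 56 matrix genes on array 1 (circles) and array 2 (triangles), grouped by role; the dotted line is the highest bacterial control and the dashed line the 60th percentile, both of array 1. All 9 laminins and both nidogens lie left of the dashed line, and array 2's own limits were 76.2 and 342.22.

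Promoter sequences of 36 of the 56 genes were found in RefSeq (GRCm38.p6) as windows of 250 bases before and 50 after each gene start. The pair Col4a1 and Col4a2 is shown because both were bright, their transcripts start 21 bases apart on opposite strands of chromosome 8, and the capitals mark the 78 bases, chr8:11312777-11312854, that the 2 windows share. By these starts the transcripts overlap, and the shared stretch consists of the 50 bases after each start. The windows are chr8:11312777-11313076 (minus strand) for Col4a1 and chr8:11312555-11312854 (plus strand) for Col4a2.
Col4a1: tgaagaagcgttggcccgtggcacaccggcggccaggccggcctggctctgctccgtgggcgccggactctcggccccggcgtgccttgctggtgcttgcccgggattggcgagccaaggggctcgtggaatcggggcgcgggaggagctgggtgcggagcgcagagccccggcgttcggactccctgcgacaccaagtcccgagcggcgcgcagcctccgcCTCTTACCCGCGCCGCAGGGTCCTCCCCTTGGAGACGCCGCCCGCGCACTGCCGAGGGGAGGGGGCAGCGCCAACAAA
Col4a2: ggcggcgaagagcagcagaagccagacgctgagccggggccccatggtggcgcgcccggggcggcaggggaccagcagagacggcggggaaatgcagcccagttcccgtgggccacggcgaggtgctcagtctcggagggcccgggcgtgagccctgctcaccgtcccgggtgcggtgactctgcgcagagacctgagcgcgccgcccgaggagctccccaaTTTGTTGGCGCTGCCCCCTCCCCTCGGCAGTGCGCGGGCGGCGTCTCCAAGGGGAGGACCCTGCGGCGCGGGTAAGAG
The fibrillar chains Col1a2 (chr6:4505368-4505667, plus strand) and Col3a1 (chr1:45311288-45311587, plus strand) are shown for comparison, and here capitals mark the CCAAT motif, the TATAAA motif and the GGGCGG motif, read on both strands.
Col1a2: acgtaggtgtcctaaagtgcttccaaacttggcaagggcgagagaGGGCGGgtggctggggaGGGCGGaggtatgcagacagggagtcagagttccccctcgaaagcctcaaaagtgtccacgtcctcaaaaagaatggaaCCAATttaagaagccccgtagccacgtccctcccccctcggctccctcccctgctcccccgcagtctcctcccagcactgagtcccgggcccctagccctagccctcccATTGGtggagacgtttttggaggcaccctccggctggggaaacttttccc
Col3a1: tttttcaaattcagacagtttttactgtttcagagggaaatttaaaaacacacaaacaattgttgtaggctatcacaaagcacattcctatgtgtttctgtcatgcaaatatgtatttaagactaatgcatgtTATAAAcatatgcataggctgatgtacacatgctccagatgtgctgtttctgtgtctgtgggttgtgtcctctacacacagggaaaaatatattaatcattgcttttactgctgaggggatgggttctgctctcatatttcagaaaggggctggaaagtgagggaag

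Base composition differed among these windows. G and C made up 74% of the Col4a1 window, 73.7% of the Col4a2 window and 61% of the Col1a2 window, but 37.7% of the Col3a1 window, beside a median of 52.7% over 32851 promoter windows. In the Col1a2 window the first CCAAT began 109 bases before the start and a second, on the opposite strand, at the start itself. In the Col3a1 window TATAAA began 117 bases before the start. CCAAT and GGGCGG also occurred in the Col4a1 window, at 2 sites, and in the Col4a2 window, at 4, where capitals do not mark them. Among windows of the bright matrix genes, 7 of 19 held CCAAT and 9 of 19 held GGGCGG, read on both strands, where neighbouring motifs may share bases. These motifs were found in 6 of 24 and 13 of 24 windows of the matrix genes that were not bright, and in 37.4% and 35.7% of all windows. The TATAAA motif was present in 2 of 19 windows of bright matrix genes, 7 of 24 of the others and 13.6% of all. These are counts of letters in a window, and some genes have more than 1 window.

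Fibrillar collagens were bright in 4 of 8 cases, beside 45.2% of all named genes. Type I collagen, the main tension-bearing fibril of capsule and trabeculae, was read through both its chains. Col1a1 gave 931.6 on array 1 and 938.3 on array 2, and Col1a2 gave 1766.3 and 2136.1. Both chains stayed above the cutoff on each array, with means of 935 ± 4.74 and 1951 ± 261 (SD, n = 2 arrays here and below). Col3a1, the chain of the type III collagen in reticular fibres, gave 566.7 and 398.4, higher on array 1 by 1.42-fold, and a mean of 483 ± 119. Col5a1, a chain of type V collagen that sets fibril diameter, gave 630.8 and 661.4, so the arrays differed by 1.05-fold. Its partner chain Col5a2 gave 282 and 376.2 and passed the cutoff on array 2 alone, the only matrix gene that was bright on 1 array and not on the other.

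The remaining fibrillar genes are the cartilage chains. Col2a1 gave 89.6 and 119.2, and Col11a1, a chain of cartilage type XI collagen, gave 76.1 and 111.6, so each exceeded the highest control only on array 2. Col11a2 gave 148.3 on array 1, above the control, and 20.5 on array 2, below it. All 3 stayed under the brightness cutoff. Of 4 measured cartilage and bone markers 0 were bright, against 45.2% of all named genes. Acan and Matn1 of cartilage gave 21.9 and 22.7, and 15.6 and 8.1, under the highest control, whereas Ibsp and Alpl of bone gave 118.2 and 130, and 223.3 and 258.4, above it.

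Basement membrane collagens split by chain. Col4a1 and Col4a2, which wind together into the type IV collagen found in most basement membranes, gave 1362.7 and 1177.1, and 1381.2 and 1496.4. Both were bright, with Col4a1 1.16-fold higher on array 1 and Col4a2 1.08-fold higher on array 2. The chains known from kidney glomerulus and other specialised membranes were at control level: Col4a3 gave 14 and 12.8, and Col4a4 gave 14.9 and 9. Col4a5, their partner in the glomerular network, gave 55.5 and 21.1 and was below the highest control on both arrays too.

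Col7a1 and Col18a1 were bright as well. Col7a1, which forms the anchoring fibrils of skin, gave 418.6 and 391.3. Col18a1, a collagen of vascular and epithelial basement membranes whose cleaved end is endostatin, gave 530.6 and 461.4 by the probe set used. None of its other probe sets was bright. The related Col15a1 gave 24.4 on array 1 and 118.1 on array 2, on either side of the highest control. Col7a1 lay near the cutoff, and neither it nor Col18a1 was above the 75th percentile.

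Laminins, heterotrimers of an alpha, a beta and a gamma chain that nucleate basement membranes, were the largest role without a bright gene. All 9 measured chains were under the cutoff, with means between 40.7 and 257, while 6 of them exceeded the highest control on both arrays. Lamc1, the gamma chain of most laminins, gave 304.8 and 208.5. Lamb2, a beta chain of vascular and neuromuscular laminins, gave 261.3 and 201.8. Both were above the control and under the cutoff on both arrays.

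The alpha chains define where a laminin is used. Lama1, an embryonic and epithelial chain, gave 179.3 and 143.6, and Lama2, the muscle chain, gave 156.1 and 120.5. Lama4 and Lama5, the chains of vascular basement membranes, gave 111.4 and 114.3, and 139.3 and 97.4. By the probe sets used, these 4 were above the control but not bright. A second probe set of Lama4 gave 22.9 and 106.5, and one of Lama5 gave 90.4 and 130.8. Each passed the highest control on array 2 alone. Lama3 and Lamb3, epidermal chains, stayed below the highest control on both arrays, and Lamb1 passed it on array 2 alone, at 90.8 and 97.5.

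Nidogens link laminin to type IV collagen. Nid1 gave 78.6 and 38.7 and Nid2 gave 30.5 and 27.6, so neither exceeded the highest control on either array. Among basement membrane components, Col4a1, Col4a2, Col7a1 and Col18a1 were thus bright. Col4a3, Col4a4, Col4a5, Col15a1 and the laminin and nidogen genes were not. Because signal varies with probe sequence, this does not rank their RNA amounts. The probe sets used for Lamb1, Lamb3 and Lamc1 carry a suffix that marks families of similar sequences, those for Lama3 and Nid2 one that marks probes shared between transcripts, and a second probe set of Lamc1 gave 36.5 and 57.3.

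**Figure D2:**
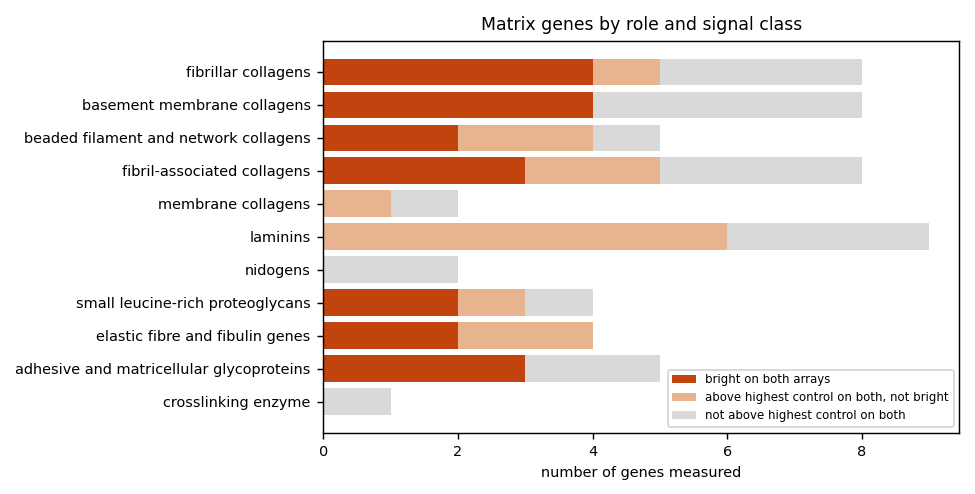
Number of measured matrix genes in each role, divided into bright, above every bacterial control on each array but not bright, and the remainder. Fibrillar and basement membrane collagens each hold 4 bright genes of 8, and the 9 laminins and 2 nidogens hold 0.

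Collagens that form beaded filaments and networks were bright in 2 of 5 cases, beside 45.2% of all named genes. Type VI collagen, a filament that surrounds cells, is built from 3 chains. Col6a1 gave 790.4 and 598, and Col6a3 gave 363.9 and 526.3, so both were bright but moved in opposite directions between the arrays. Col6a2 gave 324.4 and 265.5 and was under the cutoff on both. Col8a1, a short-chain collagen of vessel walls, gave 164.1 and 186.7, above control, and Col10a1 of hypertrophic cartilage gave 81.4 and 64.5, at control level.

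Fibril-associated collagens decorate fibrils rather than form them. Genes of this role, with Col26a1 grouped among them, were bright in 3 of 8 cases, beside 45.2% of all named genes. Col14a1, found in tendon and other fibril-rich tissue, gave 435.7 and 439.1, nearly the same value on both arrays. Col9a1 and Col9a2, chains of the type IX collagen of cartilage, gave 587.9 and 355.6, and 591.5 and 529.2. The third chain, Col9a3, gave 325.2 and 257, under the cutoff. Of the type IX chains 2 were thus bright, whereas Col2a1, whose fibrils they coat in cartilage, was near the highest control.

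Col9a1 differed by 1.65-fold between the arrays, the widest gap among bright matrix genes. Of the rest, Col26a1 was above control at 171.7 and 191.6. Col12a1 gave 74.5 and 97.3, Col19a1 gave 58.1 and 74.5, and Col22a1 gave 5.1 and 19.3. None of these 3 exceeded the control on both arrays. The transmembrane collagens Col13a1, at 184.5 and 87.3, and Col17a1, a component of epidermal hemidesmosomes, at 45.6 and 96.4, were not bright.

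Small leucine-rich proteoglycans bind collagen fibrils and control their spacing. Bgn gave 8758.4 and 8802.2, with a mean of 8780 ± 31.0, and Dcn gave 2049 and 2139.4, with a mean of 2094 ± 63.9. Both were bright and differed by under 1.1-fold between arrays. Lum and Fmod, the other 2 members measured, were not bright: Lum gave 101.3 and 67.6, and Fmod gave 119.2 and 108.3.

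Elastic fibre and fibulin genes, with Mgp grouped among them, were bright in 2 of 4 cases, beside 45.2% of all named genes. Eln, which encodes elastin, gave 875.1 and 857.2, a mean of 866 ± 12.7. Fbln1, a fibulin of elastic fibres and basement membranes, gave 520.4 and 423.4. Fbln2 gave 203.3 and 144.1, and Mgp, an inhibitor of tissue calcification, gave 323.1 and 191.1. These last 2 lay above the control on both arrays and below the cutoff on both.

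Adhesive and matricellular glycoproteins were bright in 3 of 5 cases, beside 45.2% of all named genes. Fn1, the fibronectin that cells grip through integrins, gave 1102.8 and 1136.5. Sparc, a collagen-binding calcium protein, gave 892.2 and 961.1, and Postn, periostin, gave 377.6 and 361.7. All 3 differed by under 1.1-fold between the arrays. Vtn, a plasma adhesion protein made mainly by liver, gave 40.3 and 86.3, and Tnc, tenascin of remodelling tissue, gave 66.2 and 61.2, neither above the highest control on both. Lox, the enzyme that crosslinks collagen and elastin, gave 76 and 83.

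Several of these genes lie beside one another in the genome. By RefSeq order of protein-coding genes (GRCm38.p6), 6 pairs of matrix genes are direct neighbours, out of 56 genes spread over 19 chromosomes. In 1 pair, Col4a1 and Col4a2, both were bright, in 1, Col4a3 and Col4a4, neither was, and in 4 only one was. Those 4 were Col9a1 with Col19a1, Col3a1 with Col5a2, Col6a1 with Col6a2, and Dcn with Lum.

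Differences between the arrays were compared over bright genes. Pooled SD here is the root mean square of the log2 differences divided by the square root of 2. It describes the spread of log2 signal on an array and is smaller than the spread of the differences. The pooled SD was 0.197 over the 20 bright matrix genes and 0.152 over all 3731 bright named genes. Of the 20, 0 differed by more than 2-fold, near the 0.107% of all bright named genes, and 11 differed by less than 1.1-fold. Those over 1.3-fold numbered 4, or 20%, against 8.15% of all bright named genes: Col3a1, Col6a1, Col6a3 and Col9a1. Array 2 was higher for 10 bright matrix genes and array 1 for the other 10.

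The spread differed with signal. Named genes and matrix genes were divided into 4 signal classes, cut so that each holds as many of the 12422 probe sets that are not controls. In the brightest class the pooled SD was 0.120 over 11 matrix genes and 0.142 over 2504 named genes, and in the next class it was 0.295 over 15 matrix genes and 0.234 over 2323 named genes. In the class after that it was 0.488 over 21 matrix genes and 0.508 over 1954 named genes. In the dimmest class, where the floor replaced low values, it was 0.367 over 9 matrix genes and 0.246 over 1470 named genes. More matrix genes fell in the second dimmest class than in any other, 37.5% against 23.7% of all named genes.

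Among the 35 matrix genes above control on both arrays, 1 differed by more than 2-fold, against 1.48% of all such named genes. It was Col13a1, with a log2 difference of -1.08 (array 2 minus array 1), followed by Mgp at -0.76 and Col9a1 at -0.72. In the other direction the widest were Col6a3 at 0.53, Col5a2 at 0.42 and Col1a2 at 0.28. Second probe sets of Col13a1 and Col1a2 went the opposite way from those used. That of Col13a1 gave 46.4 and 59.1, below the highest control, and that of Col1a2 gave 1564.1 and 1386.4. No direction was shared by the chains of type VI collagen, since by the probe sets used Col6a1 and Col6a2 were higher on array 1 and Col6a3 on array 2.

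**Figure D3:**
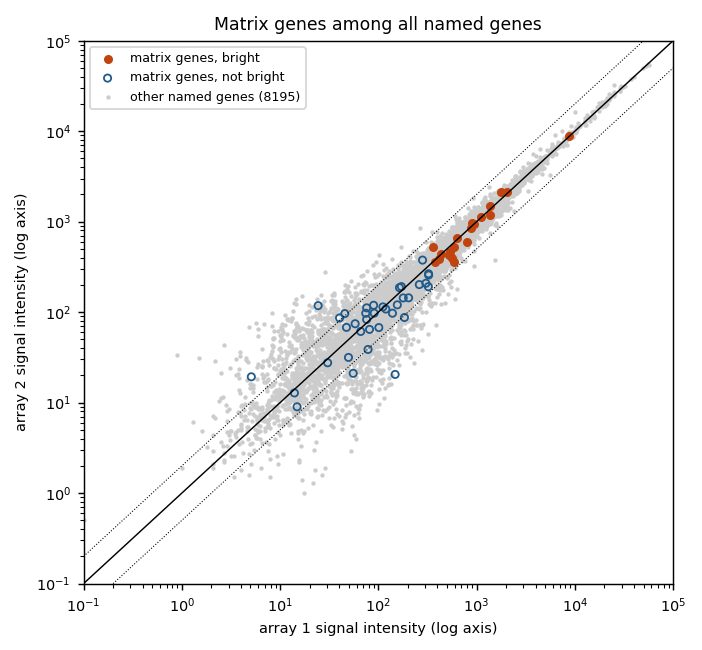
Signal intensity on array 1 against array 2 (log axes) for bright matrix genes, other matrix genes and all other named genes (dots); the solid line marks equal signal and the dotted lines a 2-fold difference. Bright matrix genes lie between the dotted lines, and those outside them are dim.

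How far a call rests on 1 probe set could be examined for the 20 matrix genes read by several. Of these, 9 were bright, and in 3 of the 9, Col1a1, Col1a2 and Bgn, every probe set was bright. In 5 of the 9 another probe set did not exceed the highest control on both arrays: Col3a1, Col6a1, Col18a1, Eln and Fbln1. For Col3a1 the other 2 gave 119 and 142.7, and 60.8 and 55.4, beside 566.7 and 398.4 for the one used. For Eln the second gave 43.5 and 6.9 beside 875.1 and 857.2, and for Col6a1 it gave 17.3 and 53.4. The other probe sets of Col18a1 had means from 19.5 to 104.45, beside 496 for the one used. The second probe set of Col5a1 gave 175.3 and 291.4, above the control but under the cutoff. Bright calls of all but Col1a1, Col1a2 and Bgn among the 9 therefore depend on which probe set is read.

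**Figure D4:**
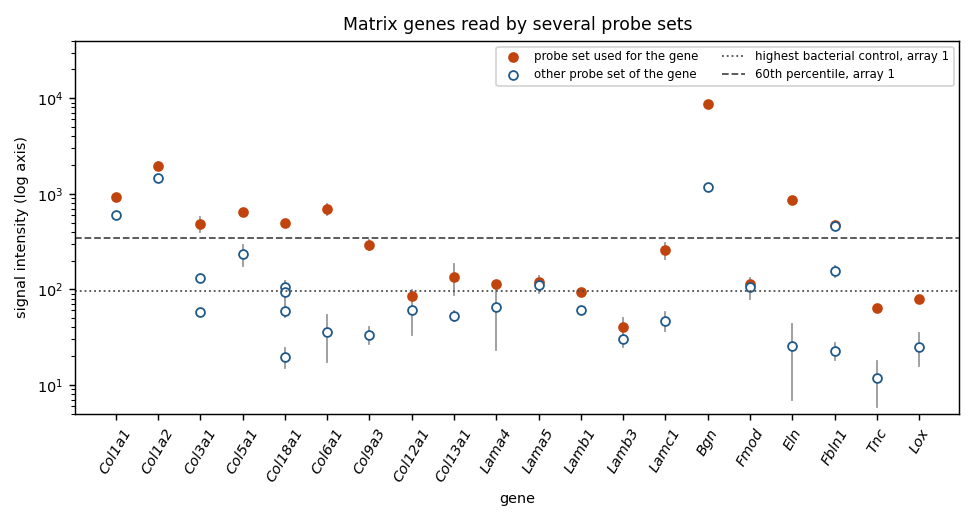
Mean signal intensity (log axis) of every probe set of the 20 matrix genes with several, with the one used for the gene filled and the others open; vertical lines span arrays 1 and 2. Col1a1, Col1a2 and Bgn have all probe sets above the dashed line of the 60th percentile of array 1, while Eln and Col6a1 have one far above it and another near or below the dotted line of the highest control.

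Genes that make, cut or bind the matrix were listed separately. The list of processing enzymes also held chaperones and genes of secretory export, and was not limited to genes that serve collagen alone. It was bright in 9 of 12 cases, against 45.2% of all named genes, with a median log2 signal of 9.52 beside 8.29. P4ha1 and P4hb, the 2 subunits of the prolyl hydroxylase that stabilises the collagen helix, gave 481 and 411.2, and 1543.2 and 916.2. Plod3, a lysyl hydroxylase, gave 837.8 and 648.7. P4hb also acts on other secretory proteins, and its probe set carries a suffix for relaxed probe selection. Serpinh1, the collagen-specific chaperone Hsp47, gave 977.7 and 1009.9, and Pcolce, an enhancer of procollagen cleavage, gave 963 and 694.5. The other bright genes were Crtap, at 740.2 and 717.8, Ppib, at 1925.3 and 1871.5, Sec23a, at 564.7 and 604.6, and Mia3, at 881.7 and 707.2. Which cells gave the signals of this list was not tested.

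Matrix proteases and their inhibitors were bright in 5 of 17 cases, against 45.2% of all named genes, with a median log2 signal of 6.29 beside 8.29. Mmp14, a membrane-bound collagenase, gave 1018.6 and 1178.6, and the inhibitors Timp1 and Timp2 gave 622.1 and 452.4, and 788.4 and 804.1. The other bright members were the inhibitors Timp3, at 969.1 and 973.2, and Reck, at 430.3 and 518.8. The 5 bright genes were thus Mmp14 and inhibitors, and the secreted gelatinases Mmp2, at 84.4 and 92.8, and Mmp9, at 146 and 34.8, were not.

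Matrix receptors were bright in 5 of 18 cases, against 45.2% of all named genes. When probe sets that may read several targets were left out, 2 of 16 were bright, against 43.4%, and the bright Itgb1 and Cd44 had no probe set left, while the one left for Itgav was not bright. The 2 that stayed bright were Itgb5 and Dag1, the latter at 646.9 and 552.2. Itgb1, the beta subunit shared by most collagen and laminin integrins, gave 4636.5 and 3850.7. Itgav and Itgb5, which pair to bind vitronectin, gave 1254.3 and 1174, and 1160.5 and 1055.5. Leukocytes and endothelium carry these receptors as well as fibroblasts. The collagen receptor subunit Itga2, at 37.1 and 33.7, was at control level, and Ddr1 and Ddr2, receptor kinases for collagen, gave 297.8 and 317.1, and 226.7 and 210.1, under the cutoff.

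**Figure D5:**
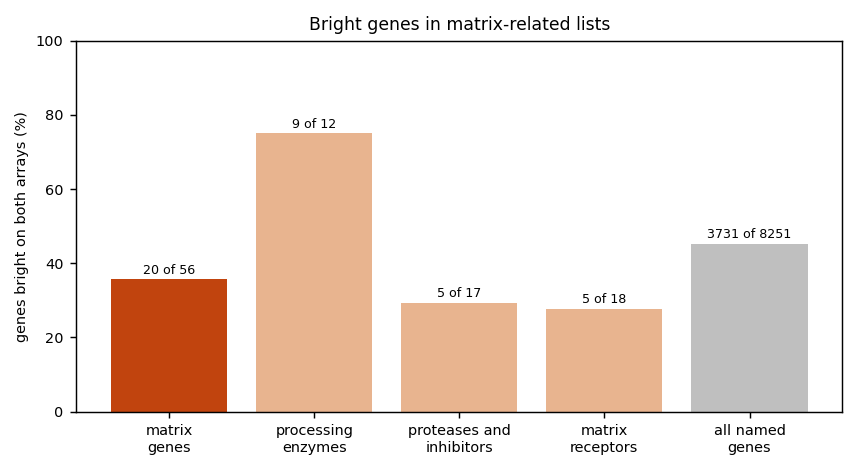
Percent of measured genes that were bright on both arrays, for the matrix genes, for 3 lists of genes that process, cut or bind the matrix, and for all named genes; each bar carries its count. Processing enzymes stand at 9 of 12, and matrix genes at 20 of 56.

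Markers of the cells that could supply matrix RNA were measured on the same arrays. Reticular fibroblast genes were bright in 6 of 11 cases, smooth muscle genes in 4 of 8 and endothelial genes in 3 of 9, beside 45.2% of all named genes. The 6 bright genes of the fibroblast list were Pdgfra, Cxcl12, Cxcl13, Thy1, Vcam1 and Tcf21. Of these Cxcl12 gave 2583.3 and 2637.4, Thy1 gave 1140 and 1195.5, and Vcam1 gave 7430.4 and 7170.4. In the same list Pdpn, Il7, Lepr and Nkx2-5 were not above the highest control on both arrays. Whether the listed genes were read from fibroblasts or from other cells was not tested. Among smooth muscle genes Tagln gave 1575.6 and 1719.6, while Cnn1, at 52.2 and 42.3, and Smtn, at 78.6 and 59.3, were below the control. Among endothelial genes Eng gave 2879.9 and 2955.6, while Pecam1, at 76.3 and 285, and Emcn, at 76 and 95.2, passed the control on array 2 alone. Mesothelium, the cell layer over the capsule, had 1 of 6 bright, Upk3b at 371.3 and 474.4, and macrophages had 8 of 8. The part of each cell type in the matrix signals was not tested.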

How the data were processed

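RNA of mouse spleen was measured on 2 arrays. The deposited table holds 1 linear signal intensity per probe set and array, and the sources used here do not name the software behind it. Trimmed means of the deposited intensities, with 2% of probe sets left out at each end, were 500.265 and 500.278, so both arrays had been scaled alike. Of 12488 probe sets 66 were controls. Of the others 10833 named 1 gene in the platform annotation, 396 several and 1193 none, and all 56 matrix genes were found in RefSeq. For medians and differences, intensities were floored at the 20th percentile of their array (41.8 on both) and log2-transformed, and the median difference of bright probe sets was subtracted from all differences. The rule named all bright members, the first 2 other measured members of each role, those furthest apart and the first 3 bright genes of each related list; further members and list genes were added after their values were seen. Members and lists were chosen with earlier results of these data known. With 1 group no test was run, and precision is limited by having 2 arrays. The calculation was tested on simulated data. Python 3.11.15, numpy 2.4.6, pandas 2.3.3, scipy 1.17.1 and matplotlib 3.10.9 were used. Alternatives changed the cutoff, floor, normalization, centring, control level, probe set rule and arrays used.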

Additional observations from a re-analysis of the deposited data

Results flagged for a closer look

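The next probe sets of 4 genes were not used for the gene's value, yet were themselves bright, above every bacterial control. The second probe set of Bgn had a mean signal of 1172.7, that of Col1a1 604.15, that of Col1a2 1475.25 and that of Fbln1 454.65. Of all 26 unused probe sets of matrix genes, 8 lay above the highest control on both arrays and 18 did not. With 2 arrays there are too few to single out an array that stands apart.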

How the results depend on the processing

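Values are given where an alternative moved a count or spread by over 1.5 times, or the median log2 signal by over 0.105, the SD of the array medians. Probe sets that name several genes could change no matrix gene value, since 0 of them name a matrix gene. With them the bright share of all named genes became 47.0%, over 8949 genes. With brightness set at the 75th percentile, 9 matrix genes were bright, beside a 28.5% share among all 8251 genes, and their pooled SD was 0.0905. Without a brightness filter the pooled SD was 0.370 and 5 genes were more than 2-fold apart. In the second dimmest signal class such genes were 4 of 21 matrix genes, beside 321 of 1954 named genes. In the dimmest class they were 1 of 9, beside 30 of 1470. The median log2 signal became 7.30 with the mean over probe sets and 7.56 with log2(value + 16). On 1 array alone, 20 or 21 matrix genes were bright, beside 47.6% of all named genes. There 37 to 43 exceeded the highest control, beside 75.9% to 79.1% of all named genes, and the median was 7.36 to 7.51. Bright genes ranged from 2 to 5 for fibrillar, 2 to 4 for basement membrane, 0 to 3 for beaded filament and network and 0 to 4 for fibril-associated collagens, from 7 to 11 for processing enzymes, 3 to 6 for proteases and inhibitors, and 2 to 9 for receptors. Laminins and nidogens had 0 bright genes under every alternative that counted them. Over these alternatives the bright share of all named genes ran from 28.5% to 55.7%. With the mean over probe sets, 16 matrix genes were bright, beside 41.4% of all named genes. Of the 9 bright genes with several probe sets 8 moved by more than their SD. No paired analysis was possible because there is only 1 group. Signals near the control level limit the comparison of arrays.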
